A study of Mus musculus with 2 samples.

Results

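The genes described here encode the glutathione transferases and the antioxidant enzymes of the liver. The members are set by gene symbol, and the list of symbols was drawn up with earlier results of these data known. It holds the families Gsta, Gstm, Gstp, Gstt, Gstk, Gstz, Gsto, Mgst, Gpx and Prdx, and the single genes Gclc, Gclm, Gsr, Gss, Nqo1, Txnrd1, Txn1, Cat, Sod1, Sod2, Srxn1 and Nfe2l2. On an array of 22690 probe sets (a probe set is the group of short oligonucleotides that reads 1 transcript), 69 probe sets named 1 of these genes and no other, and they covered 44 of the 12393 genes named in this way. Of these, 52 probe sets and 38 genes reached a signal of 80 on at least 1 array and are called measured, against 5911 measured genes over the whole array. The array also carried Prdx1 and Gsta1, but only on probe sets that name other genes as well, so neither has a value of its own here. No probe set here named Prdx5, Prdx6, Prdx6b, Gsto2, Gstp2 or Gstt4.

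The data are liver expression profiles from 2-month-old female mice of C57BL/6J background, labelled as lacking both working copies of the apolipoprotein E gene. Such mice clear lipoprotein remnants poorly and have high plasma cholesterol. The first diet was chow with 10% (w/w) olive oil (labelled OO), and the second was the same chow with 10% (w/w) of olive oil enriched in maslinic acid, a triterpene of olives (labelled MAOO), both for 4 weeks. The study had 12 mice, 6 per diet, but the series holds 1 array per diet, and the sources used here do not say whether its RNA came from 1 mouse or a pool. Both diet groups are labelled as knockouts, and no array is labelled as wild type or as a diet without added oil. With 1 array per diet no difference has a replicate check, so no test, standard error or p-value is given, and genes are described by size. The number of arrays limits the precision. Apoe itself read 407.7 on the array labelled OO and 7630 on the array labelled MAOO. That goes against the knockout label, at least on the second array, though where its probes lie in the gene is not known here. A difference between the arrays by diet therefore cannot be told apart from one by genotype or sample identity. Directions are given between the arrays as labelled.

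Glutathione is a tripeptide with a reactive thiol, made in large amounts in hepatocytes. Glutathione transferases couple it to electrophilic drugs, toxins and products of lipid oxidation, and glutathione peroxidases use it to reduce hydrogen peroxide and lipid peroxides. Peroxiredoxins do similar work with electrons from thioredoxin, catalase splits hydrogen peroxide in peroxisomes, and superoxide dismutases turn superoxide into hydrogen peroxide. Many of these genes are targets of NRF2, the product of Nfe2l2, which is degraded through KEAP1 until electrophiles or oxidants stop that degradation, and which binds antioxidant response elements in DNA.

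Across these enzymes the arrays read nearly alike. None of the 38 measured genes lay 1.5-fold or more apart between the arrays: 0 were higher and 0 lower on the array labelled MAOO, where 1.47% and 1.57% of the 5911 measured genes were higher and lower by that size. With 38 genes, a share of 3.05% in either direction is about 1 gene, so the count of 0 is near the background. The log2 ratio (MAOO over OO, as everywhere below) had a median of -0.019 over the members and of -0.0099 over all measured genes. The sizes were alike too, with a median absolute log2 ratio of 0.14 for members and 0.12 for all measured genes. Of the members 18 lay above 0 and 20 below. The members farthest from 0 were Gsta2 at -0.55, Nqo1 at 0.53, Gpx3 at 0.50 and Gstm2 at 0.48. Of these, Nqo1 and Gpx3 reached the signal needed to be called measured on the array labelled MAOO alone. Each therefore had to be the higher there to be counted, and their positive signs carry no information on direction.

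A gene was read by its probe set with the highest mean signal, and the only repeat reading of a gene is another probe set on the same arrays. The SD of the log2 ratio between measured probe sets of 1 gene was 0.23 over 1815 genes, and 0.34 over the 11 members that have several. Of the 38 members, 30 lay closer to 0 than 0.23 (78.9%, against 76.6% of all measured genes). This technical spread does not contain the spread between mice or between hybridisations.

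**Figure D1:**
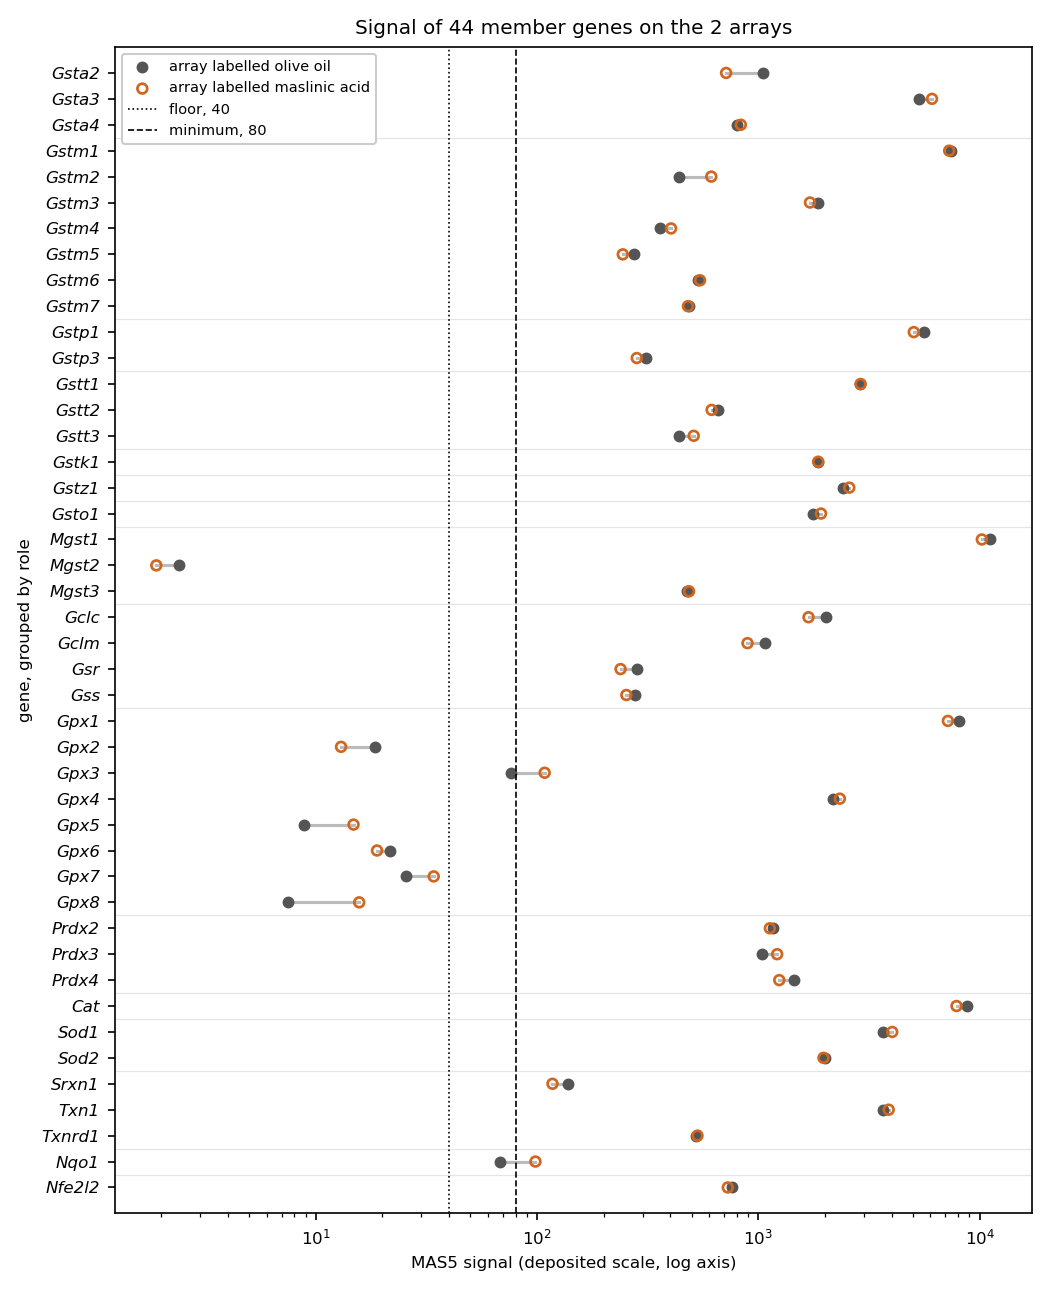
The plot of member signals shows MAS5 signal on a log axis for 44 genes grouped by role, filled for the array labelled OO and open for the array labelled MAOO, 1 probe set per gene. The 36 genes right of the minimum of 80 on both arrays have nearly overlapping points, with Gsta2 and Gstm2 the widest apart, while Gpx3 and Nqo1 straddle the minimum and 6 genes lie left of the floor of 40.

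Upstream sequences are shown for members that the values below turn on. Of the 44 genes, 40 matched the RefSeq promoter table of build GRCm38.p6 by symbol, and Gclc, Gsr, Gsta4 and Gstt2 did not. Windows of 300 bases, 250 before to 50 after each listed gene start, were searched on both strands for the core of the antioxidant response element, TGACNNNGC. It was present in 9 of the 40 member genes (22.5%), against 14.0% of all 27025 genes of the table. The 9 were Gclm, Gsta3, Gstm5, Gstm7, Mgst1, Nfe2l2, Sod1, Srxn1 and Txnrd1, and all 9 were measured. The AP-1 site TGACTCA, which can overlap the element, was present in 4 of 40 member genes and 5.95% of all genes, with a pair of matches in Srxn1 and 1 each in Gstm5, Gstp1 and Mgst2. A match of letters is a description, not a bound site. Sequence outside the window was not searched, so a gene without a match here can hold the element elsewhere.

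The 250 bases before the gene start are printed for Gclm and Gsta3, which hold the core and lay on opposite sides of 0, and for Gsta2, Gstm2 and Nqo1, which lay farthest from 0 apart from Gpx3 and hold no match in this window. Sequences run 5′ to 3′ on the strand of the gene, and capitals mark the core, in Gclm as its reverse complement. Gclm lies on the plus strand at chr3:122245307-122245556 with the match starting 134 bases before the gene start, and Gsta3 on the plus strand at chr1:21240335-21240584 with the match starting 121 bases before it. Gsta2 lies on the minus strand at chr9:78347146-78347395, Gstm2 on the minus strand at chr3:107986421-107986670 and Nqo1 on the minus strand at chr8:107403206-107403455.
Gclm: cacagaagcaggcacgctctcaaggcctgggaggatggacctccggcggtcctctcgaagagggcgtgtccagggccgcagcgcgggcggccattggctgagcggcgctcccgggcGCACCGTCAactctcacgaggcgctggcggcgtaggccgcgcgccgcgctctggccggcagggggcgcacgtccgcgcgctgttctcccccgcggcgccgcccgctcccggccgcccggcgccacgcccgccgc
Gsta3: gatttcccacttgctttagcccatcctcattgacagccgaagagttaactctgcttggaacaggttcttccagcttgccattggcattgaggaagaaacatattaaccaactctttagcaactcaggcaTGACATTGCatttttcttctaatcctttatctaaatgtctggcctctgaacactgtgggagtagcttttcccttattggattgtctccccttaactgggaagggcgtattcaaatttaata
Gsta2: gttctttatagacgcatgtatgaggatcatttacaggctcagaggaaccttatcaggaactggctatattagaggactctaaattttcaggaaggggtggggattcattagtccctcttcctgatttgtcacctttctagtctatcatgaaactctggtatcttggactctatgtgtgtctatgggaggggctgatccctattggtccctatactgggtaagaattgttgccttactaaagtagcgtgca
Gstm2: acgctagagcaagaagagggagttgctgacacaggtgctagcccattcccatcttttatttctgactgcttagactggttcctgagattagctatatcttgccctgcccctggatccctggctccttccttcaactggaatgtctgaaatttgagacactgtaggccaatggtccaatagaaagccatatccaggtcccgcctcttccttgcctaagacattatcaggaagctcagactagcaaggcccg
Nqo1: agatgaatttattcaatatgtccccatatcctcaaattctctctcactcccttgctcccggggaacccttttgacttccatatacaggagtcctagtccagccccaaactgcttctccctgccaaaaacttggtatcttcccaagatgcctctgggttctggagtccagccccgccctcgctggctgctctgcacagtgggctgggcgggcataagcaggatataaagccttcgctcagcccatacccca

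Measured members with the core in the searched window had a median log2 ratio of -0.069, with 3 of 9 above 0, and ranged from -0.26 in Gclm to 0.20 in Gsta3. The 25 measured members without it had a median of 0.0084, with 14 above 0, of which Nqo1 and Gpx3 were counted only because they reached the minimum on the array labelled MAOO. Nothing about the element is drawn from these medians.

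The alpha class holds the transferases that act on bulky electrophiles and on 4-hydroxynonenal, a product of lipid oxidation. Gsta2 read 1046.5 on the array labelled OO and 715.2 on the array labelled MAOO, 1.46-fold lower and a log2 ratio of -0.55. It was the member farthest from 0: 3.67% of all measured genes, and 1.70% of the 1353 with a mean signal within 2-fold of its own, lay as far from 0 in either direction. Such small shares are likely for the gene picked as the farthest of 38 members. The probe set used names Gsta2 alone. Gsta1 is a close copy, and whether the probe set also reads Gsta1 was not tested. The only probe set that names several genes of this class names Gsta2 too, beside Gsta1 and Gm3776. It lay at -0.17, with signals of 585.6 and 520.2, a smaller difference than the -0.55 above.

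Gsta3, an abundant hepatic alpha transferase, went the other way, from 5326.5 to 6098.1, a log2 ratio of 0.20, although its other probe set gave -0.012 (2130.1 and 2112.5). Gsta4, the form most active on 4-hydroxynonenal, read 799.6 and 833.6, a log2 ratio of 0.060. The 3 measured alpha genes therefore lay on both sides of 0.

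The mu class is encoded by a cluster on chromosome 3, where the gene table orders 7 genes as Gstm5, Gstm7, Gstm6, Gstm3, Gstm2, Gstm1 and Gstm4. In that order their log2 ratios were -0.16, -0.017, 0.026, -0.12, 0.48, -0.021 and 0.17. Gstm2 lay farthest from 0 among the gene values of this class, with signals of 438.6 and 613.0, 1.40-fold higher on the array labelled MAOO. Of all measured genes 5.19% lay as far from 0, and at like signal 2.59% of 1934. Small shares are likely for a gene picked among the farthest of 38 members. Gstm2 has a single probe set, so it has no repeat reading. Its neighbours in the cluster, Gstm3 at 1854.8 and 1712.2 and Gstm1 at 7397.1 and 7291.4, were slightly lower on that array.

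Gstm1, the main mu transferase of mouse liver, was read by 4 measured probe sets with log2 ratios of -0.021, -0.044, -0.28 and 0.50. The last of these is the dimmest, at 161.8 and 229.5. Gstm3 gave 0.079 on its other probe set against -0.12 on the one used. Gstm4 read 359.7 and 403.3, Gstm5 272.8 and 244.0, Gstm6 535.2 and 545.1, and Gstm7 486.7 and 481.0. Genes of this class are similar in sequence, and the probe sets of Gstm1 and Gstm3 used here are of kinds that can read several transcripts, so a value for 1 mu gene can hold signal from another.

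Pi transferases, which are higher in male than in female mouse liver, were slightly lower on the array labelled MAOO. Gstp1 read 5610.7 and 5044.8, a log2 ratio of -0.15, and Gstp3 read 312.2 and 282.2, also -0.15. Gstp1 has the near-identical copy Gstp2, which has no probe set of its own here. The theta class, whose members act on small halogenated compounds, did not go one way: Gstt1 read 2883.2 and 2900.1 (0.0084), Gstt2 656.9 and 615.2 (-0.095) and Gstt3 438.5 and 510.5 (0.22).

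The remaining classes have 1 measured gene each or are bound to membranes. Gstk1, the mitochondrial and peroxisomal kappa form, read 1860.4 and 1864.9, a log2 ratio of 0.0035. Gstz1, which also breaks down maleylacetoacetate from tyrosine, read 2425.0 and 2577.6 (0.088). Gsto1, the omega form that reduces glutathionylated proteins, read 1766.4 and 1920.5 (0.12), with 0.080 on its other probe set. Mgst1, a membrane-bound transferase abundant in liver microsomes, read 11185.3 and 10241.7 (-0.13), and Mgst3 read 474.2 and 486.2 (0.036). Mgst2 read 2.4 and 1.9, under the floor on both arrays. Over the class as a whole, 11 of the 20 measured transferases lay above 0 and 9 below, with a median of 0.0060.

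The enzymes that make and recycle glutathione were the only role with more than 2 measured genes in which all lay on 1 side. All 4 lay below 0, where 3074 of all 5911 measured genes did. The roles were grouped here, and among several small roles 1 with like signs can arise without a shared change. Gclc, the catalytic subunit of glutamate-cysteine ligase, the rate-limiting enzyme of glutathione synthesis, read 2024.3 on the array labelled OO and 1686.4 on the array labelled MAOO. Gclm, its modifier subunit, read 1072.2 and 893.4. Both subunits had a log2 ratio of -0.26, 1.20-fold lower. Gss, glutathione synthetase, which adds glycine, read 278.5 and 253.2 (-0.14), and Gsr, which reduces oxidised glutathione with NADPH, read 283.6 and 238.4 (-0.25).

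These 4 differences are of the order of the technical spread. The other probe set of Gclc gave -0.043 (1508.4 and 1464.5), and that of Gsr gave 0.15 (197.1 and 218.1), opposite in sign, while Gclm and Gss have a single probe set each. The share of measured genes at like signal that lay as far from 0 was 10.2% for Gclc, 10.8% for Gclm, 19.3% for Gsr and 45.6% for Gss. The sign of all 4 held when the arrays were scaled to equal medians, by quantiles or with the trend on signal removed. These scalings moved the 4 values little, so the kept signs are not a further reading of them.

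Among the glutathione peroxidases, 3 of 8 genes were measured. Gpx1, the cytosolic selenoenzyme that removes hydrogen peroxide, read 8062.7 and 7192.8 (-0.16). Gpx4, which reduces lipid peroxides in membranes, read 2180.6 and 2336.4 (0.10), with 0.076 on its other probe set. Gpx3, the secreted plasma form made mainly in kidney, read 76.6 and 108.2, 1.41-fold higher on the array labelled MAOO. Gpx2, an intestinal form, and Gpx5, Gpx6, Gpx7 and Gpx8 lay under the floor on both arrays, with signals of 7.5 to 34.1.

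Gpx3 and Nqo1 are the members just inside the minimum of 80, and each reached it on the array labelled MAOO alone, so each had to be the higher there to be counted. Nqo1, a quinone reductase that is among the best-known NRF2 and aryl hydrocarbon receptor targets, read 68.2 and 98.3, 1.44-fold higher. At like signal 7.72% of measured genes lay as far from 0 as Nqo1, and 8.38% as far as Gpx3. With a floor of 80 in place of 40, Nqo1 came to 0.30 and Gpx3 to 0.44. Just outside the minimum lay further probe sets of Srxn1 (79.3 and 76.0), Sod1 (71.4 and 75.4) and Txnrd1 (58.5 and 41.6).

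Prdx4, the peroxiredoxin of the endoplasmic reticulum, was the member whose reading depended most on the probe set. Its brightest probe set read 1453.3 and 1243.6, a log2 ratio of -0.22. A further one read 487.5 and 1153.0, 2.37-fold higher on the array labelled MAOO and a log2 ratio of 1.24, and the dimmest read 176.5 and 250.2, a log2 ratio of 0.50. That 1.24 was the only value at least 1.5-fold apart among the 52 measured member probe sets, where 3.66% of all measured probe sets that name 1 gene lay that far apart and 1.77% were higher. The range of 1.47 between its probe sets was matched or exceeded in 6 of 1815 genes with several, Prdx4 included. Without Prdx4 the SD between probe sets of a member was 0.20. The direction of Prdx4 therefore cannot be given.

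**Figure D2:**
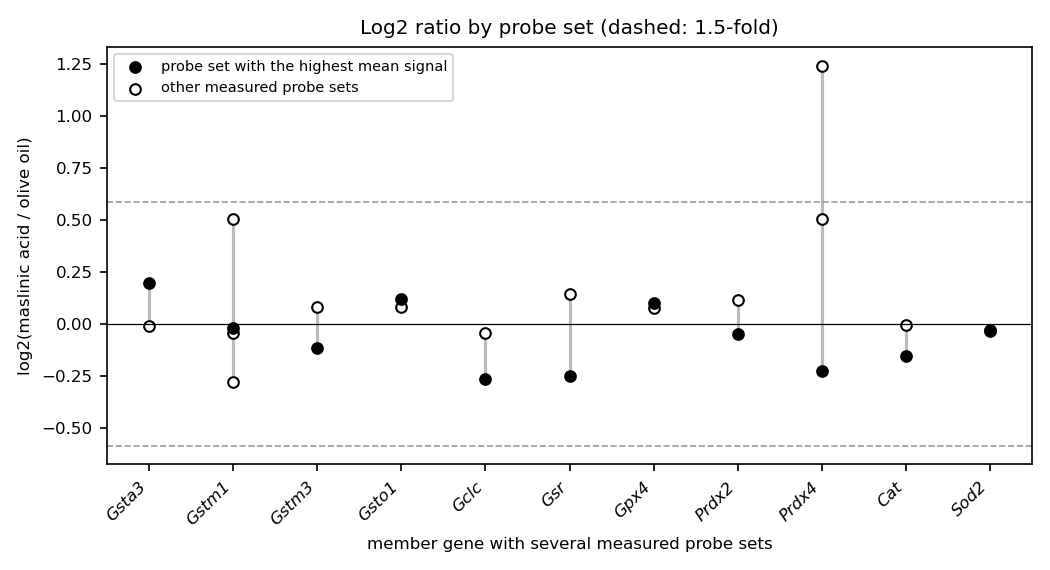
The plot of log2 ratios by probe set shows, for the 11 members with several measured probe sets, the log2 ratio of each probe set, filled for the brightest one and open for the others, with dashed lines at 1.5-fold. Prdx4 runs from -0.22 to 1.24 and Gstm1 from -0.28 to 0.50, while the probe sets of Sod2 nearly coincide.

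The other peroxiredoxins differed little. Prdx2, the cytosolic form most abundant in red cells, read 1165.9 and 1127.7 (-0.048), with 0.12 on its other probe set. Prdx3, the mitochondrial form, read 1034.3 and 1216.4 (0.23). Catalase, read by Cat, had signals of 8758.5 and 7868.8 (-0.15), and its other probe set gave -0.0060 (7309.9 and 7279.6).

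For the superoxide dismutases the values were 3651.6 and 4030.2 (0.14) for Sod1, the copper and zinc enzyme of the cytosol, and 2009.9 and 1970.2 (-0.029) for Sod2, the manganese enzyme of mitochondria. The other measured probe set of Sod2 gave -0.034. Txn1, cytosolic thioredoxin, read 3678.4 and 3885.1 (0.079), and Txnrd1, its reductase, 522.1 and 530.8 (0.024). Srxn1, sulfiredoxin, which repairs overoxidised peroxiredoxins, read 137.4 and 117.4 (-0.23). Nfe2l2 itself read 763.6 and 727.9 (-0.069), though NRF2 is controlled mainly through its protein.

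**Figure D3:**
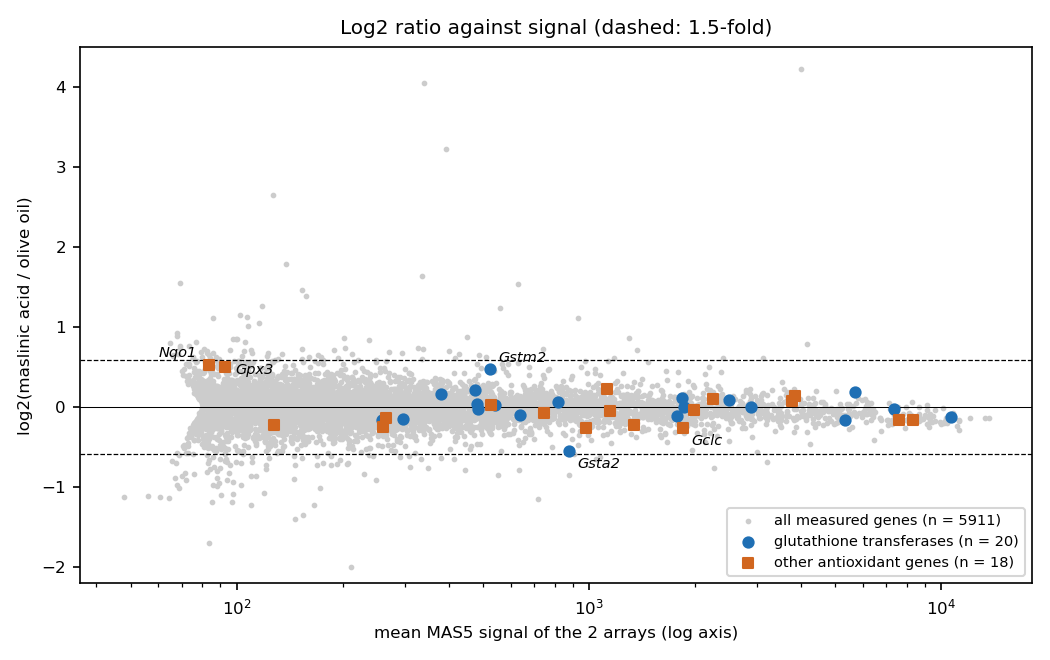
The plot of log2 ratio against mean signal (log axis) sets the 20 measured transferases and 18 other antioxidant genes over all 5911 measured genes, with dashed lines at 1.5-fold. All 38 members lie between the dashed lines, and the widest of the dim ones, Nqo1 and Gpx3, lie where the grey points spread most.

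Bright genes as a group were slightly lower on the array labelled MAOO, which bears on the bright members. Of the 478 measured genes with a mean signal of at least 2000, 70.9% lay below 0, with a median log2 ratio of -0.058. The 11 members in that range had 5 below 0 and a median of 0.0084. Gpx1, Cat, Gstp1 and Mgst1 lay between -0.13 and -0.16, and Gsta3, Sod1, Gpx4, Gstz1, Txn1 and Gstt1 lay above 0. With the trend on signal removed, Gpx1 came to -0.078, Cat to -0.063, Gstp1 to -0.085 and Mgst1 to -0.023. Gstm1 turned to 0.064 in that setting, and 36 of 38 members kept their sign under all 4 scalings; the other was Gstk1 (-0.0030 with equal medians).

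Related genes outside the members give the setting. Hmox1, the inducible haem oxygenase and an NRF2 target, was 1 of 15 measured genes on the list of other NRF2 targets, and it read 129.9 and 37.2. The second signal lay under the floor, so Hmox1 was lower by at least 3.25-fold on the array labelled MAOO. It was the only gene at least 1.5-fold apart on that list, and with a minimum of 160, or of 80 on both arrays, it was not measured. Of the 15 genes 12 lay below 0, and their median was -0.054. Over the whole array 3074 of 5911 measured genes lay below 0. Most genes of the list had a mean signal from 500 to 2000, where 50.8% of all measured genes lay below 0. Only a few had at least 2000, where 70.9% did. The cause of the lean of this list was not tested. Abcc2, which exports glutathione conjugates into bile, lay at -0.30, Tkt at -0.25 and Osgin1 at 0.13. Hmox1 reached the minimum of 80 on the array labelled OO alone, so it had to be the lower on the other array to be counted.

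The list of NRF2 regulation had 7 measured genes, 4 above 0, with a median of 0.066. Keap1, the adaptor that brings NRF2 to degradation, read 187.1 and 207.0 (0.15), and Bach1, a repressor of Hmox1, read 343.1 and 359.1 (0.066, chosen after its values were seen). Bach2 lay at -0.31. The list of cysteine supply, which also holds genes of cysteine breakdown and of the methionine cycle, had a median of -0.061, with 3 of 10 above 0. Most of its measured genes had a mean signal of at least 2000, where 70.9% of all measured genes lay below 0. Its values ran from Cbs, which condenses homocysteine with serine, at -0.23 to Cth, which releases cysteine, at 0.056 (chosen after its values were seen). Genes of glutathione turnover and use had a median of 0.018, with 5 of 10 above 0, from Abcc2, which is on both lists, at -0.30 to Glrx, glutaredoxin, at 0.29. The other measured probe set of Glrx gave 0.023.

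Other thioredoxin system genes lay evenly, with 7 of 14 above 0 and a median of -0.0021. Txnip, the thioredoxin inhibitor, read 746.8 and 707.1 (-0.079), and the thioredoxin-like gene Txndc17 lay highest at 0.57, but its 3 probe sets ran from 0.048 to 0.57. Genes for selenium supply and other selenoproteins, like Gpx1, Gpx4 and Txnrd1, involve the amino acid selenocysteine. On that list 8 of 11 measured genes lay below 0, with a median of -0.11, where 3074 of all 5911 measured genes lay below 0. Sephs2 of that list, which makes selenophosphate, lay at -0.25, although its 3 probe sets ran from -0.31 to 0.51. Selenop, the plasma selenium carrier, read 10214.2 and 9032.5 (-0.18). Other superoxide and peroxide genes had 5 of 10 above 0 and a median of -0.0060, with Cyba, a subunit of the phagocyte NADPH oxidase, lowest at -0.23. Cybb, the other membrane subunit, read 64.6 and 80.8 (0.32) and was counted only because it reached the minimum on the array labelled MAOO.

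**Figure D4:**
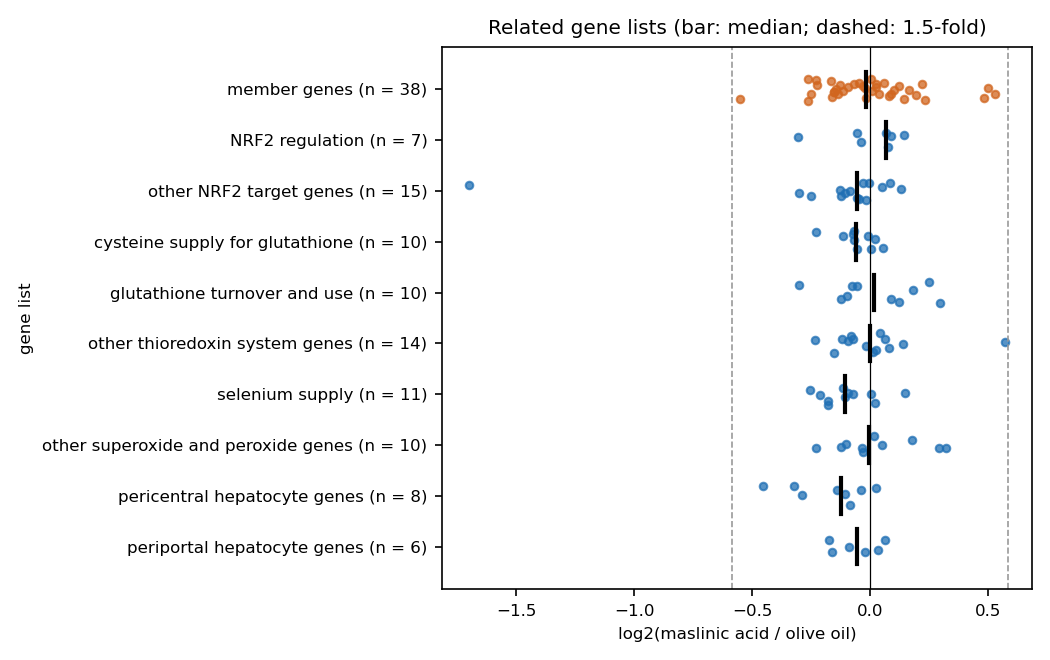
The plot of related lists shows the log2 ratio of each measured gene, 1 point per gene, with a bar at the median of each list and dashed lines at 1.5-fold. The point left of the dashed line is Hmox1, drawn at its bound of -1.70, and the members lie between -0.55 and 0.53.

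Markers of the cells in the liver were read beside these values. The 9 measured hepatocyte markers all lay below 0 (median -0.18), and their summed signal on the array labelled MAOO was 89.9% of that on the other. All 9 have a mean signal of at least 2000, where 70.9% of all measured genes lay below 0, and the measured probe sets of Hnf4a ran from -0.22 to 0.64. Pericentral hepatocyte genes had 7 of 8 below 0 (median -0.12), led by Cyp1a2 at -0.45, and periportal genes 4 of 6 below 0 (median -0.057). Most measured genes of both these lists also have a mean signal of at least 2000. Of 10 Kupffer cell markers 6 lay above 0 (median 0.049), with summed signals of 10573 and 10572.2 and Marco lowest at -2.0. Stellate cell markers had 5 of 6 measured above 0 (median 0.24), and endothelial markers 0 of 6 (median -0.14). Both lists are short, and of all 5911 measured genes 2828 lay above 0. Of the 5 red blood cell markers on the array, 4 lay under the floor on both arrays, Hba-a1 among them, and Alas2 lay at 0.68. All 5 cholangiocyte markers lay under the floor on both arrays, as did 4 of 6 lymphocyte and 2 of 3 exocrine pancreas markers, with Ighm at 1.54 and Cela1 at -0.54 as the measured ones. The 3 measured probe sets of Ighm ran from 0.49 to 1.54. In a bulk liver sample fewer cells of a type and less RNA per cell cannot be told apart. The part of any such difference in the values of the members was not tested.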

How the data were processed

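Liver RNA was hybridised as biotin-labelled cRNA to 1-colour Affymetrix arrays, 1 array per diet, per the labels' protocols. The authors deposited 1 linear intensity per probe set and array, made with MAS5 according to the submitters' processing notes; the sources used here give no version, settings or detection calls. The 2% trimmed mean was 200.0 on each array (medians 44.4 and 44.6), so the deposited scaling was kept. Signals under 40 were set to 40, and a probe set was measured from 80 on at least 1 array; 48.4% and 48.2% of probe sets lay under the floor. Probe sets naming 1 gene (20393) were used, 691 naming several were left out of the gene values, and 1606 were unnamed here; 20364 had an Entrez number found in the GRCm38.p6 gene table. A gene was read by its probe set with the highest mean signal. Python 3.11.15, pandas 2.3.3 and statsmodels 0.14.6 were used. The steps were also run on simulated data whose changes were larger than that of any measured member gene. That run does not bear on differences of the sizes described for the members.

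The rule for named genes covers every member. Of each related list, up to 4 genes with the largest absolute log2 ratio were eligible, plus Hmox1, Keap1, Txnip, Actb and Apoe; Actb read 7594.5 and 6530.8. The members, the lists and the alternatives (scaling, floor, minimum, probe set choice and kind) were chosen with earlier results of these data known. No test was run.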

Additional observations from a re-analysis of the deposited data

Results flagged for a closer look

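A signal appeared in probe sets outside the gene values, which name a gene of these families beside another gene. Of 6 such measured probe sets, 5 name the same pair of genes, and 1 of these read 664.6 on the array labelled OO and 1083.6 on the array labelled MAOO, 1.63-fold higher. The other 4 of that pair read between 4471.4 and 8500.2 on the array labelled OO, with log2 ratios from -0.28 to 0.070. The cause of the disagreement was not tested.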

How the results depend on the processing

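No paired analysis was possible because the design has a single array for each diet, and no array can be left out. The count of members at least 1.5-fold apart was 0 in each direction under all 10 alternatives. The members' median ran from -0.025 (equal medians) to 0.016 (mean of all measured probe sets), so its sign is not fixed. Among 366 alternative values of member genes, 365 moved by less than the spread of 0.23 between probe sets; Prdx4 moved from -0.22 to 0.51 with the mean of its measured probe sets. The minimum of 80 and the floor limit what can be said of Gpx3, Nqo1 and Srxn1, the dimmest measured members.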
